A study of Mus musculus with 8 samples.

Results

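This report describes 6 of the 1181 miRNA precursors measured in small RNA libraries of mouse myoblasts. They are mir-431, which the series title names, and its close neighbours mir-433, mir-127, mir-434, mir-136 and mir-3071, chosen by name because they lie at the Rtl1 gene on chromosome 12. The file lists them as mmu-mir-431, mmu-mir-433, mmu-mir-127, mmu-mir-434, mmu-mir-136 and mmu-mir-3071. All 6 were abundant enough to be compared, out of 359 such precursors in all. Myoblasts are the muscle precursor cells that divide and fuse into fibres. They came from 4 old and 4 young C57BL/6J mice, with 1 small RNA library per mouse, numbered in the labels and named here old 1 to old 4 and young 1 to young 4. The labels give the strain and the words old and young for the groups. Ages, sexes, muscle of origin and culture of the cells are not stated in the labels. The series title places the question in how miR-431 acts in the differentiation and regeneration of old muscle.

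Rtl1 is a paternally expressed gene derived from a retrotransposon, within the imprinted Dlk1-Dio3 domain. A long transcript made from the other strand of the maternal chromosome carries hairpins that Drosha and Dicer cut into mature miRNAs. Because miRNAs of that transcript are made from the strand opposite the Rtl1 message they pair with it along their whole length, and in mouse they are known to guide its cleavage. Other miRNAs pair with their targets mainly through the seed, bases 2 to 8 of the mature miRNA. miR-431 is of interest in muscle for its targets in satellite cells and, as the title says, Smad4, a mediator of TGF-beta signalling.

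The mature sequences are shown because they set apart which hairpins are antisense to Rtl1 and which is not. They are from RefSeq (GRCm38.p6, the same build as the mm10 named in the submitters' processing notes), all 6 precursors matched, and the capitals mark the seed.
miR-431-5p: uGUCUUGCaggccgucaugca
miR-431-3p: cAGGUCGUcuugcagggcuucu
miR-433-5p: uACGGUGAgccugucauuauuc
miR-433-3p: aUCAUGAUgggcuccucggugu
miR-127-5p: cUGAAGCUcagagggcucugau
miR-127-3p: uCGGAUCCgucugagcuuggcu
miR-434-5p: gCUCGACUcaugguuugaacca
miR-434-3p: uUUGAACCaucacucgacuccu
miR-136-5p: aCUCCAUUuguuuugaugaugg
miR-136-3p: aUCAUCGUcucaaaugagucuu
miR-3071-5p: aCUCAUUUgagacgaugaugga
miR-3071-3p: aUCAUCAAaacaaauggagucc
The 12 sequences have 12 different seeds, and none of these seeds occurs in another of the 1738 mature mouse miRNAs of the RefSeq table. Members of this group therefore share a locus and not a seed. The 10 mature sequences of mir-431, mir-433, mir-127, mir-434 and mir-136 each have 1 perfect complement in the Rtl1 transcript. The site for miR-431-5p (21 bases, chr12:109590459-109590479, minus strand, GRCm38) is shown as the example, with the seed match in capitals.
Rtl1 site of miR-431-5p: tgcatgacggcctGCAAGACa
The 2 mature sequences of mir-3071 have no complement in Rtl1 and instead equal a stretch of it. mir-3071 lies on the minus strand, the strand of Rtl1, so it is not antisense to Rtl1 although it is grouped with the miRNAs that are. miR-136-5p and miR-3071-3p are complementary over a run of 20 bases, and miR-136-3p and miR-3071-5p over 19.

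All 6 hairpins lie inside the protein-coding sequence of Rtl1 (GENCODE M21, coding sequence at chr12:109590172-109595403, minus strand) within 4951 bases. On the plus strand in this order are mir-431 (chr12:109590447-109590537), mir-433 (chr12:109591715-109591838), mir-127 (chr12:109592846-109592915), mir-434 (chr12:109594506-109594599) and mir-136 (chr12:109595327-109595388). mir-3071 (chr12:109595318-109595397) encloses mir-136 on the minus strand. A further hairpin of the RefSeq table within this coding sequence, mir-432, lies between mir-434 and mir-136 and was listed at 0 in all 8 libraries.

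The deposited values are log2 abundances per precursor, scaled by its length as far as the values show, so levels of different precursors are compared here per length. They do not separate the 5p and 3p arms. If read as RPKM (reads per kilobase, scaled to library size), the libraries held 25.1 to 39.4 M reads. The labels do not say whether counting used the strand of a read. Wherever mir-136 and mir-3071, on opposite strands, were both detected, their values differed only by about the log2 ratio of their lengths. Counting thus did not separate the strands at this pair. For the other members neither labels nor values settle it. Fragments of Rtl1 RNA itself therefore cannot be told apart from reads of its antisense miRNAs. Fewer cells of a type and less RNA per cell cannot be told apart either. Each library is 1 mouse, and a difference between groups is read against the spread between mice.

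mir-431 was at 6.17, 6.39, 10.14 and 5.80 (log2 abundance) in old 1 to old 4 and at 9.09, 9.23, 11.05 and 6.36 in young 1 to young 4. Old 3 lay above young 1, young 2 and young 4, and young 4 lay below old 2 and old 3, so the groups overlapped. A young library was higher in 12 of the 16 pairs of an old with a young mouse. The old mean was 7.12 ± 2.02 and the young mean 8.93 ± 1.93 (SD, n = 4 each). Old minus young was thus -1.81 (SE 1.15, 95% interval -4.39 to 0.78). This did not pass the test (limma, Benjamini-Hochberg adjusted over 359 precursors, adjusted p = 0.995, two-sided exact permutation p = 0.314). Of all compared precursors 0 (0%) were below an adjusted p of 0.05 by limma. At an unadjusted p under 0.05 there were 4 (1.11%), with no member among them. Without old 3 the difference in mir-431 was -2.81, and without young 3 it was -1.10. The largest contrast was between single mice, with 38.05 times as much mir-431 in young 3 as in old 4. In reads, if the values are RPKM, mir-431 rested on about 127 (exact Poisson 95% interval 106 to 151) in old 4 and about 6309 in young 3, so counting error was small beside the spread between mice.

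mir-127, the most abundant of the group and a known repressor of Rtl1 in mouse placenta, was at 15, 15.55, 18.65 and 14.57 in old 1 to old 4. In young 1 to young 4 it was at 17.93, 17.73, 19.34 and 15.20. The same mice stood out as for mir-431, with young 3 and old 3 highest and old 4 lowest, and the groups overlapped. The means were 15.94 ± 1.85 and 17.55 ± 1.72 (SD, n = 4 each), a difference of -1.61 with a 95% interval from -3.91 to 0.70 (limma adjusted p = 0.995).

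mir-434 was at 7.12, 7.34, 10.67 and 6.71 in old 1 to old 4 and at 10.12, 9.61, 11.47 and 7.49 in young 1 to young 4. Here young 4 lay just above old 2, and young libraries were higher in 13 of the 16 pairs, the most of any member. The difference was -1.71 with a 95% interval from -4.00 to 0.57 (limma adjusted p = 0.995).

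mir-433 was at 5.85, 5.92, 9.05 and 4.33 in old 1 to old 4 and at 8.34, 8.32, 10.34 and 5.49 in young 1 to young 4. Old 3 lay above 3 young libraries and young 4 below 3 old ones. The difference was -1.83 with a 95% interval from -4.44 to 0.77 (limma adjusted p = 0.995). For mir-433, mir-127 and mir-434 the difference was -2.76, -2.51 and -2.62 without old 3, and -1.10, -1.01 and -1.11 without young 3. For mir-433 it was -1.18 without old 4.

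mir-136, the least abundant member on the antisense strand, was at 0, 4.52, 6.21 and 2.54 in old 1 to old 4 and at 5.06, 5.85, 6.87 and 2.04 in young 1 to young 4. The 0 in old 1 is the floor of the file, at which a precursor of this length would hold under about 1.73 reads. Old 4 and young 4 rested on about 9.06 and 10 reads (exact Poisson 95% intervals 4.12 to 17.1 and 4.8 to 18.4). These low values are therefore imprecise, whereas old 3 and young 3 held about 120 and 237 reads. The old minus young difference of -1.64 had a 95% interval from -4.77 to 1.5 (limma adjusted p = 0.995), and leaving out old 1 reduced it to -0.53. Leaving out young 3 gave -1.0, and leaving out old 3 or young 4 gave -2.60 or -2.61.

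mir-3071 gave no measurement of its own. It was listed at 0, 4.15, 5.85 and 2.16 in old 1 to old 4. In young 1 to young 4 it was listed at 4.69, 5.48, 6.5 and 1.66. In the 7 libraries where both were above 0 it differed from mir-136 by -0.38 to -0.36, against -0.37 for the log2 ratio of the lengths. The values are those of 1 set of reads divided by either length, so counting did not separate the strands at this pair. Which strand the reads came from cannot be read from the values. The difference of -1.54 (limma adjusted p = 0.995) repeats that of mir-136. Leaving out old 1 or young 3 took it to -0.53 or -0.90, and leaving out old 3 or young 4 to -2.48 or -2.52. The group is counted below as 5 precursors.

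**Figure D1:**
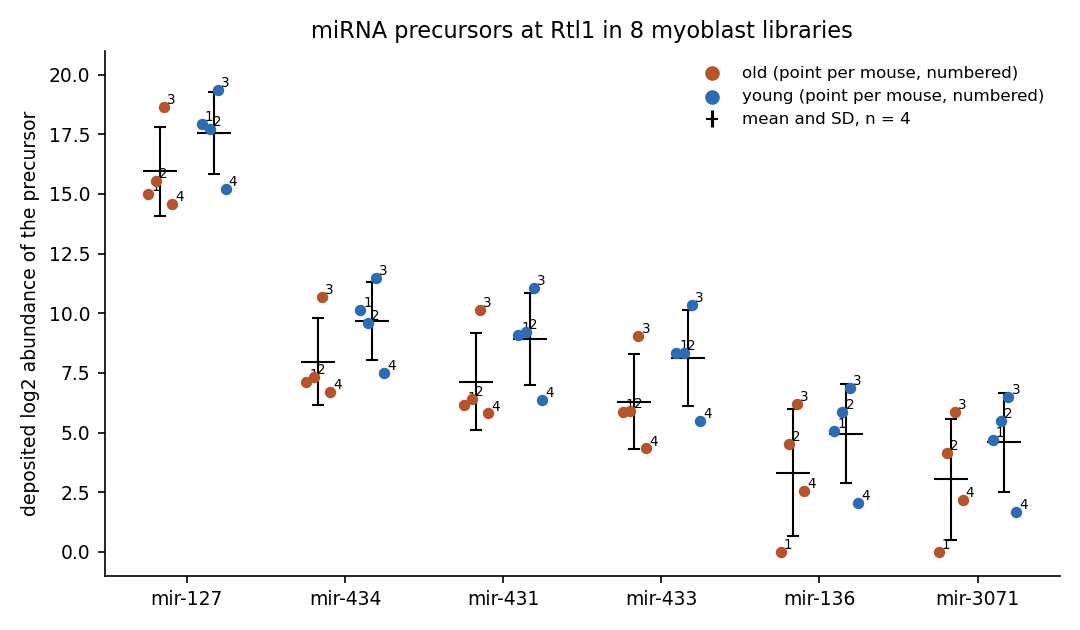
Deposited log2 abundance (vertical axis) of the 6 precursors at Rtl1 in each old and young library, 1 numbered point per mouse, with the mean and SD of each group (n = 4). For every precursor young 3 is highest and old 3 second, old 3 lies above 3 young libraries, and young 4 lies among the old libraries.

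The old mean was below the young mean for all 5, with differences from -1.83 to -1.61 and a median of -1.71. Over all 359 compared precursors 194 (54%) had a lower mean in old libraries and the median difference was -0.05. The 5 are no separate evidence of that direction, since the same mice set it for each. Groups that did not overlap were found for 3 of the 359 precursors (0.836%) and for 0 of the 5.

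**Figure D2:**
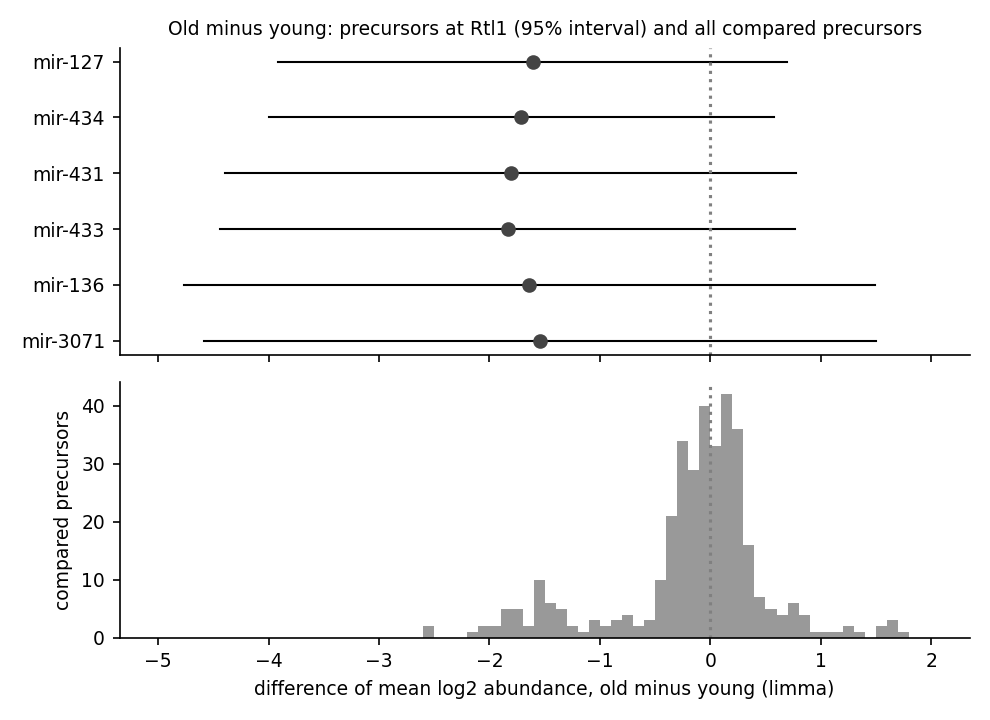
Above, the limma difference of mean log2 abundance (old minus young, horizontal axis) of the 6 precursors at Rtl1, with 95% intervals that all include 0. Below, the number of compared precursors (vertical axis) by the same difference, with a median of -0.05.

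The mice differed from each other at this locus more than at most others. The SD over the 8 libraries was 2.07 for mir-431, 2.09 for mir-433, 1.86 for mir-127, 1.85 for mir-434 and 2.38 for mir-136 on the log2 scale. The median over the 359 compared precursors was 0.638, and these members ranked 25, 22, 41, 42 and 11 from the most variable. This was not particular to Rtl1. In the 33 other compared precursors between Dlk1 and Dio3 the SD ran from 1.43 (mir-1247) to 2.64 (mir-493). The highest library exceeded the lowest by 38.05 times for mir-431, 64.45 times for mir-433, 27.28 times for mir-127 and 27.1 times for mir-434. In every member young 3 was highest and old 3 second, followed by young 1 and young 2 in either order and then old 2 or young 4. In mir-431, mir-433, mir-127 and mir-434 old 4 was lowest, and in mir-136 it was old 1.

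The order of the members by level was the same in all 8 libraries, from mir-127 through mir-434, mir-431 and mir-433 to mir-136. mir-127 exceeded mir-434 by 7.71 to 8.21 on the log2 scale, or 209 to 296 times. It exceeded mir-431 by 313 to 572 times. mir-434 stood above mir-431 by 0.38 to 1.13, and mir-431 above mir-433 by 0.32 to 1.47, so these neighbours were close but never changed places. mir-136 lay below mir-433 by 1.40 to 3.47 in the 7 libraries where it was above the floor. mir-127 accordingly held 99.0% to 99.3% of the summed linear abundance of the 5, and mir-431 held 0.174% to 0.316%. The 5 together made up 0.271%, 0.527%, 3.59% and 0.201% of the abundance of all precursors in old 1 to old 4. In young 1 to young 4 they made up 1.67%, 2.10%, 5.25% and 0.394%. The total over all precursors counts repeated hairpins such as mir-3071 as well and is scaled by length, so these are not shares of reads.

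Differences between members within a library varied far less than the level of the locus between libraries. The log2 difference between mir-127 and mir-434 had an SD of 0.165 over the 8 libraries, and that between mir-431 and mir-127 of 0.271. Among mir-431, mir-433, mir-127 and mir-434 the 6 pairs had SDs from 0.165 to 0.424, compared with 1.85 to 2.09 for their own levels. Pairs with mir-136 were looser, at 1.16 to 1.36, and at 0.703 to 0.867 without old 1, where mir-136 was at the floor.

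Whether mir-431 moved apart from its neighbours between old and young mice was tested with its log2 difference to each of 4 members, which cancels the level of the locus. Relative to mir-127, mir-431 was at -8.83, -9.16, -8.51 and -8.77 in old 1 to old 4 and at -8.84, -8.50, -8.29 and -8.84 in young 1 to young 4. The groups overlapped, with means of -8.82 ± 0.27 and -8.62 ± 0.27 (SD, n = 4 each, two-sided exact permutation p = 0.457). The old minus young difference was -0.20, with a 97.1% interval by inversion of that test from -0.87 to 0.33.

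Relative to mir-434, the old average of mir-431 was -0.83 ± 0.20 and the young one -0.74 ± 0.40 (SD, n = 4 each, two-sided exact permutation p = 0.800, interval of the difference -0.57 to 0.60). Young 2 and young 3 were highest, at -0.38 and -0.42, and young 4 was lowest, at -1.13. Relative to mir-433 it averaged 0.84 ± 0.54 and 0.81 ± 0.10 (n = 4 each, exact permutation p = 0.971, interval -0.59 to 0.76). The young libraries lay between 0.71 and 0.91 there, and the old ones spread from 0.32 in old 1 to 1.47 in old 4, the library with the fewest mir-433 reads (about 62.6). Relative to mir-136 the averages were 3.81 ± 1.79 and 3.98 ± 0.42 (n = 4 each, exact permutation p = 0.800, interval -2.45 to 2.79), with old 1 at 6.17 because mir-136 was at the floor. None of the 4 passed (Benjamini-Hochberg adjusted over these 4 tests, adjusted p = 0.971 for each). With 4 against 4 mice the smallest possible p is 0.0286. The intervals leave room for a change of mir-431 of up to -0.87 relative to mir-127.

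**Figure D3:**
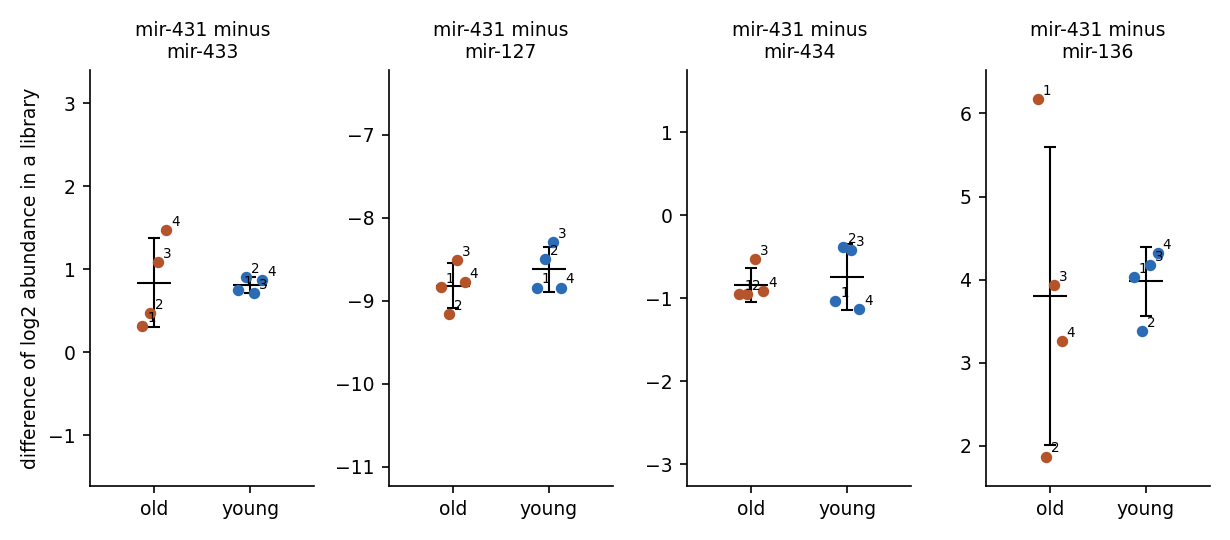
Log2 abundance of mir-431 minus that of mir-433, mir-127, mir-434 and mir-136 (vertical axes, each spanning 5 log2 units) in each library, with the mean and SD of each group (n = 4). Old and young points overlap in every panel, and old 1 at 6.17 in the last panel rests on the floor value of mir-136.

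The precursors most like mir-431 over the 8 libraries were found by the SD of their log2 difference to it, where a low SD means a near-constant ratio. Outside the members the closest were mir-666 (SD 0.210), mir-410 (0.302), mir-668 (0.360), mir-381 (0.406) and mir-673 (0.408), all of the same imprinted domain. mir-666 was at 5.49, 5.98, 9.25 and 5.0 in old 1 to old 4 and at 8.28, 8.31, 10.25 and 5.99 in young 1 to young 4. It lies 126.638 kb downstream, so its ratio to mir-431 was no less steady than that of mir-127, which is under 3 kb away (SD 0.271).

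Among the 320 compared precursors outside the domain the SD of the difference ran from 1.32 to 4.42, with a median of 2.36. The lowest were mir-133a-1 (1.32) and mir-133a-2 (1.32), copies of a muscle-specific miRNA, followed by mir-6923 (1.38), mir-6997 (1.5) and mir-128-2 (1.61). The mir-133a copies kept a near-constant difference to each other over the libraries. They may list the same reads and are not separate signs. The SDs of all these outside precursors are above those of mir-433, mir-127, mir-434 and mir-136 (0.271 to 1.21). Within the domain mir-299a (1.55), the overlapping mir-299b (1.55) and mir-1247 (2.62) also lay above the lowest outside value. mir-133a-1 was at 12.99, 13.11, 14.30 and 12.94 in old 1 to old 4 and at 13.53, 13.92, 14.92 and 11.91 in young 1 to young 4, so young 3 and old 3 were highest here too. It was picked for its likeness to mir-431, so the shared highest libraries are no separate sign.

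**Figure D4:**
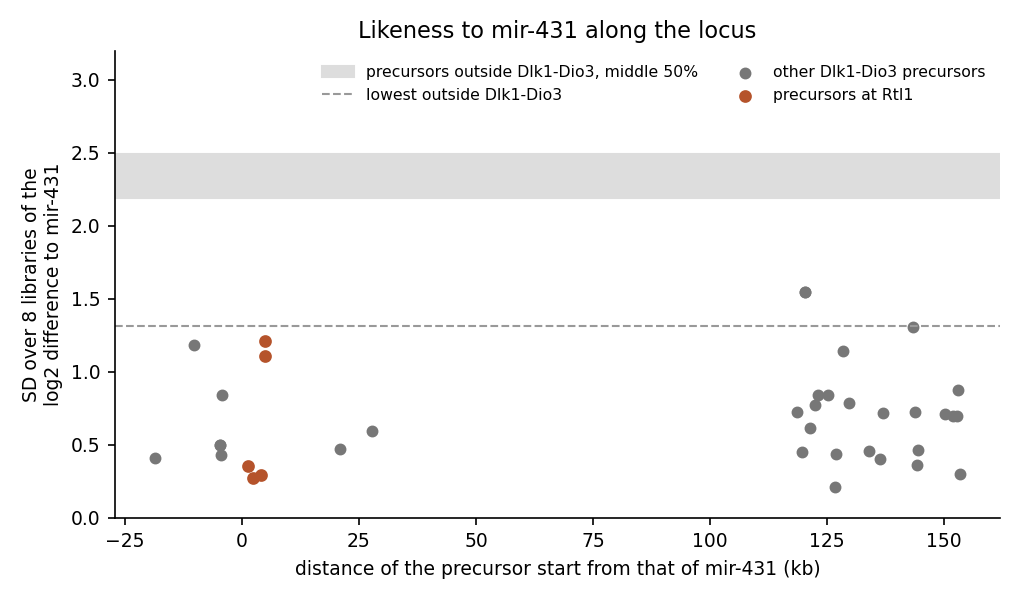
SD over the 8 libraries of the log2 difference to mir-431 (vertical axis) by distance in kb from the start of mir-431 (horizontal axis), for members and other compared precursors of the Dlk1-Dio3 domain within 200 kb. The grey band is the middle 50% of precursors outside the domain (2.19 to 2.49) and the dashed line their lowest value (1.32).

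Between Dlk1 and Dio3 the file lists 55 other precursors, of which 33 were compared. Of these 33, 32 had a lower mean in old libraries and 1 a higher one, with a median difference of -1.57. At an adjusted p under 0.05 (limma) there were 0 of them, and at an unadjusted p under 0.05 also 0. Among the 33, 2 overlap another hairpin and repeat its reads. The exception was mir-1247, next to Dio3 at the far end of the domain (chr12:110278048-110278129, minus strand). It was at 6.31, 6.56, 5.48 and 5.20 in old 1 to old 4 and at 2.79, 7.02, 5.13 and 3.77 in young 1 to young 4, and its log2 difference to mir-431 had an SD of 2.62. Old 3 and young 3 were not its highest libraries.

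Taken as means, the members kept a steadier distance to the stretch upstream of Rtl1 than to the large downstream cluster. This comparison of means over stretches was chosen after the values were seen and was not tested. The mean of mir-431, mir-433, mir-127 and mir-434 exceeded that of 5 upstream precursors (mir-673 to mir-665) by 2.89 to 3.55. It exceeded that of 23 precursors from mir-379 to mir-410 by 3.22 in young 1 to 4.38 in young 2. For single precursors the SDs of the log2 difference to mir-431 overlapped. They were 0.408 to 1.18 upstream (median 0.497) and 0.210 to 1.55 from mir-379 to mir-410 (median 0.709). Young 1 and young 2 were alike at Rtl1, with means of 11.37 and 11.22, but in the mir-379 to mir-410 stretch they were at 8.15 and 6.84. The ratio of the Rtl1 miRNAs to the mean of the downstream cluster therefore differed between these mice, and the reason was not tested. Precursors of that cluster did not all share the drop. Of those named above, mir-666 was at 8.28 and 8.31 in young 1 and young 2, mir-668 at 8.51 and 9.05 and mir-381 at 9.94 and 10.01. By contrast mir-410 was at 9.64 and 9.28. All of these were named for their likeness to mir-431, which was at 9.09 and 9.23 in young 1 and young 2. They therefore do not stand for the rest of the cluster.

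**Figure D5:**
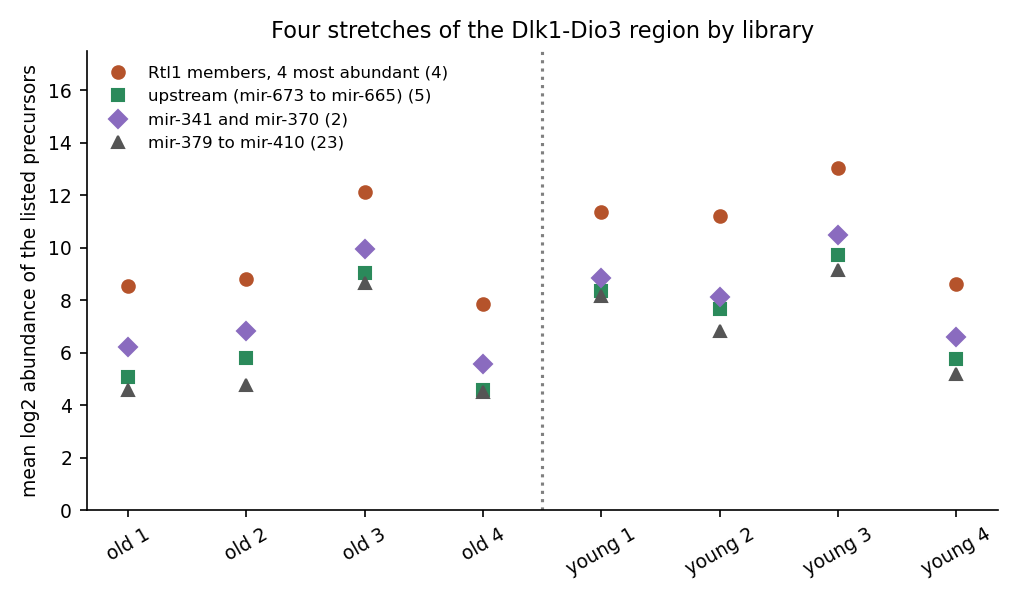
Mean log2 abundance (vertical axis) in each old and young library of 4 precursors at Rtl1, 5 upstream of it, mir-341 and mir-370, and 23 from mir-379 to mir-410, with repeated hairpins left out. Old 3, young 1, young 2 and young 3 are high in each stretch, and young 2 is lower than young 1 by 1.31 in the mir-379 to mir-410 stretch but by 0.15 at Rtl1.

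Marker miRNAs were compared with the course of the Rtl1 miRNAs. Muscle miRNAs were present in every library, with 6 of 8 listed precursors compared and mir-1a-1 and mir-1a-2 too low to be compared. The summed abundance over the list was 16.18 to 16.64 (log2) in old and 15.16 to 17.23 in young libraries. This sum was highest in young 3 (17.23) and old 3 (16.64), as mir-431 was, and lowest in young 4 (15.16). Old 1 (16.42), low in mir-431, was level with young 1 (16.45) and above young 2 (16.28), which were high in it. Old 4, the lowest in mir-431, was at 16.26. The sum includes both mir-133a copies, which were named above for their likeness to mir-431 and may list the same reads. The sum over fibroblast and smooth muscle miRNAs (5 of 5 compared) was 15.36 to 15.84 in old and 14.58 to 15.65 in young libraries. It was lowest in young 1 (14.58), young 3 (15.29) and old 3 (15.36), which were high in mir-431, and highest in old 1 (15.84) and old 2 (15.79). Young 2, also high in mir-431, was at 15.65, above old 4 (15.59) and young 4 (15.47), which were low in mir-431. Of 5 listed blood miRNAs, 4 were in the file and 1 was compared, mir-144 and mir-223 were at 0 throughout, and the sum was 3.05 to 4.47 in old and 1.97 to 4.32 in young libraries. The endothelial mir-126a was at 3.32 to 4.34 and 2.96 to 5.11, highest in young 4 and then old 4, which were low in mir-431. The epithelial sum (1 of 6 compared, mir-200a and mir-429 at 0 throughout) was 4.91 to 8.05 and 5.89 to 7.44, also highest in old 4 and young 4. The neural sum (0 of 7 compared) was 2.20 to 4.61 and 2.83 to 4.12, highest in old 3 and young 3. The part of these markers in the levels at Rtl1 was not tested.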

How the data were processed

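The file the authors deposited holds normalized log2 abundances of 1181 precursors in 8 libraries, written to 2 decimals with a floor at 0. BWA and mm10 are named in the submitters' processing notes, with no counting rule or scaling. In 99.1% to 100% of low values (up to 12 reads, tolerance 0.1 of a read) the linear value times precursor length was a whole multiple of a step, as in RPKM, and reads and library sizes rest on that reading. Their intervals cover counting error only. limma 3.58.1 (R 4.3.3, eBayes with trend) compared old with young on the deposited values. The 359 precursors that reached 10 on the linear scale in 4 or more libraries were compared, with Benjamini-Hochberg adjustment. limma was also run on simulated data in which precursors varied independently, so that check does not cover precursors that move together. Other tests were exact permutations (scipy 1.17.1, Python 3.11.15, 70 arrangements). Positions came from RefSeq, where 1176 names matched. Named were the 6 members and, by the SD of the log2 difference to mir-431, the 5 closest precursors of all and the 5 closest outside Dlk1-Dio3. The members and lists were chosen with earlier results of these data known. Alternatives were other filters, scalings and limma settings, a block by replicate number, and each library left out in turn. No library was left out of the comparisons.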

Additional observations from a re-analysis of the deposited data

Results flagged for a closer look

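In 20 groups of 4 values (6 precursors and 4 ratios, old and young), 3 single libraries lay far from the others of their group, where chance alone gives about 1 in 20 groups. All 3 are old 3. mir-431 in old 3 was 10.14, against 5.80 to 6.39 in the other old libraries. mir-434 in old 3 was 10.67, against 6.71 to 7.34. The log2 difference of mir-431 to mir-434 in old 3 was -0.53, against -0.95 to -0.91. Since mir-431 enters both its own level and that difference, these are not 3 separate signs.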

How the results depend on the processing

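In limma 0 precursors passed under each of the 17 alternatives, with 0 to 39 at an unadjusted p under 0.05. The old minus young difference of each member kept its sign in every alternative run, with adjusted p from 0.134 to 1.0. Leaving out each library gave -2.81 to -1.10 for mir-431, -2.76 to -1.10 for mir-433, -2.51 to -1.01 for mir-127, -2.62 to -1.11 for mir-434, -2.61 to -0.53 for mir-136 and -2.52 to -0.53 for mir-3071. Adding 10 to the linear value took mir-136 to -0.90 and mir-3071 to -0.81, and array weights took them to -2.73 and -2.59. A minimum mean of 100 left no value for mir-136 and mir-3071. The labels give no pairing by replicate number, and deviations of same-numbered mice correlated at -0.064, 0.43, 0.66 and 0.58 for numbers 1 to 4. With the replicate number as a block the adjusted p was 0.188 for mir-431, 0.134 for mir-433, 0.188 for mir-127, 0.181 for mir-434, 0.672 for mir-136 and 0.685 for mir-3071, with 0 precursors passing. The block's unadjusted p in limma was 0.00523 for mir-431, 0.00107 for mir-433, 0.00498 for mir-127 and 0.00403 for mir-434, so these members are among the 39 with an unadjusted p under 0.05. Each of these 4 was higher in the young mouse of all 4 same-numbered pairs, and mir-136 in 3 of 4. In limma mir-431 also had an unadjusted p under 0.05 without old 3 (0.0119), without young 4 (0.0364) and with array weights (0.0396). Under these settings 36, 27 and 27 precursors were under 0.05. In the remaining alternatives mir-431 was not. Of the mir-431 ratios, that to mir-433 changed sign when 10 was added (-0.046, from 0.027). Leaving out each library gave -0.18 to 0.20 for it, -0.30 to -0.086 for mir-127, -0.23 to 0.025 for mir-434 and -0.96 to 0.48 for mir-136. The cause of these sign changes was not tested. Depth limits mir-136, which rests on about 10 reads or fewer in 3 libraries.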

Other observations

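A few further hairpins close to the Rtl1 miRNAs were too low to be compared. mir-3070a and mir-3070b, which lie just upstream of mir-431, were at the floor of 0 in 7 and 6 of the 8 libraries, with highest values of 0.04 and 0.78 in young 3. mir-770, further upstream, was at 4.09 in old 3, 3.79 in young 1 and 5.10 in young 3, at 1.76 in old 4 and 1.72 in young 2, and at 0 in old 1, old 2 and young 4.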
